A study of Mus musculus with 12 samples.

Results

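The genes described here are the interferon-stimulated antiviral effector genes, a list of 42 mouse genes chosen by name. Of these, 39 had a row among the 13232 genes of the table, and *Oasl1*, *Isg20* and *Ifi44* did not and were not analysed here. RNA was measured in bone marrow-derived macrophages, which are cells grown from whole marrow with the growth factor M-CSF (20 ng/ml). The C57B6/J mice that gave the marrow, wild type per the labels, had eaten food high in fat (HFD) or the normal diet (ND), and the cultures were moved to serum-free medium with M-CSF on day 4. The 6 libraries compared, 3 per diet, are from cultures kept at 1% oxygen for 1 h on day 7, so low oxygen is shared by both groups, and the normal-oxygen libraries of the series were not analysed here. The labels give neither the age and sex of the mice nor the length of the diet. They also do not say whether the 3 libraries of a diet came from separate mice, so the p-values measure the spread between these libraries, which may be technical.

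Interferons are secreted proteins that warn cells of infection. They bind surface receptors whose kinases, JAK1 and TYK2, activate the STAT transcription factors. STAT proteins together with IRF9 bind a DNA element called the interferon-stimulated response element (ISRE), and STAT dimers bind a different element, the gamma-activated sequence (GAS). The genes switched on in this way block viruses at many steps, and macrophages express a number of them at a low level even without infection.

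The promoters of the listed genes carry these elements more often than promoters in general. In RefSeq's sequences for GRCm38.p6 (250 bases before to 50 bases after each start), 32 of the 42 genes had a promoter. The ISRE letters, GAAA and GAAA with any 2 bases between them, on either strand, were found in 19 of the 32 (59.4%), against 1079 of 27025 genes with a promoter (3.99%). The GAS letters TTCNNNGAA, which read the same on both strands, were found in 10 of the 32 (31.25%), against 9.55% of all such genes, and in 5 (15.6%) against 4.77% in the 150 bases before the start alone. A GAS match can overlap an ISRE match, as it does in *Bst2*. A match describes the letters and is not evidence of binding. The stretches around the ISRE matches of 6 genes are shown because these genes recur in the results below. Each is read 5′ to 3′ on the strand of its gene and ends before the start, and the capitals mark the matches, some of which overlap. The *Ifit1* stretch is chr19:34640770-34640828 (plus strand), *Ifit3* is chr19:34583358-34583431 (plus) and *Ifit3b* is chr19:34607754-34607827 (plus). *Isg15* is chr4:156200860-156200911 (minus), *Bst2* is chr8:71537572-71537617 (minus) and *Rsad2* is chr12:26456548-26456587 (minus).
Ifit1: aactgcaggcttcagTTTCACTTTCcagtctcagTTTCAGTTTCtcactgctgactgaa
Ifit3: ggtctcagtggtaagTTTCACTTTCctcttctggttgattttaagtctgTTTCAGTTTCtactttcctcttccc
Ifit3b: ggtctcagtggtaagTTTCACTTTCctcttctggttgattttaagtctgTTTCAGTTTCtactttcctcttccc
Isg15: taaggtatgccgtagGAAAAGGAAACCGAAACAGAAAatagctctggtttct
Bst2: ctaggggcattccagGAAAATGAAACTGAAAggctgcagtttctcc
Rsad2: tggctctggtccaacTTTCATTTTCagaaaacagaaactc

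The stretches of *Ifit3* and *Ifit3b* are identical over all 74 bases shown. In *Isg15* there are 3 overlapping matches, from base -78 to base -57, counting the base before the start as -1. In *Ifit1* the 2 matches lie apart, at -104 to -95 and at -85 to -76.

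The values are normalized counts, meaning estimated reads per gene divided by a size factor per library. The estimated depth was 1.90e+07 reads in ND replicate 3 and 2.22e+07 to 2.45e+07 in the others. Values of a diet are given below in the order of replicates 1 to 3. On the first principal component (43.3% of the variance among 10794 genes), the positions in the middle were those of ND replicate 3 (3.43) and HFD replicate 1 (1.33). The other ND libraries were at -14.0 and -13.5 and the other HFD libraries at 11.3 and 11.4. Counts over the 39 genes, their subfamilies, the pathway genes and the same-family genes are therefore given with all libraries and without each of these. All 8 macrophage markers fixed for the check, among them *Csf1r* and *Lyz2*, had a row, with a summed level of 345313 to 395574 in ND and 342872 to 402478 in HFD.

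Every one of the 39 genes had a lower mean log2 level in HFD than in ND. The median log2 fold change (HFD minus ND) was -0.37, which is 22.7% lower, against a median of -0.0034 over all 13232 genes, of which 51.1% were lower. Fold changes ran from -0.89 for *Ifit3b* to -0.0030 for *Samhd1*. No gene passed the threshold, an adjusted p of 0.05 by limma with Benjamini-Hochberg adjustment over all genes: 0 of the 39 genes and 0 of 13232 (0%) were called. At an unadjusted limma p under 0.05 there were 1401 genes (10.6%). Of the 39, 28 (71.8%) were lower at that p, against 5.18% of all genes, and 0 were higher, against 5.40%. The 3 HFD values all lay below the 3 ND values in 16 of the 39 (41.0%), against 7.07% of all genes, and all above in 0, against 7.44%. A log2 fold change below -0.5 was seen in 8 of the 39 and in 1.66% of all genes. In bulk RNA, fewer cells that express a gene and less of its RNA per cell cannot be told apart.

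**Figure D1:**
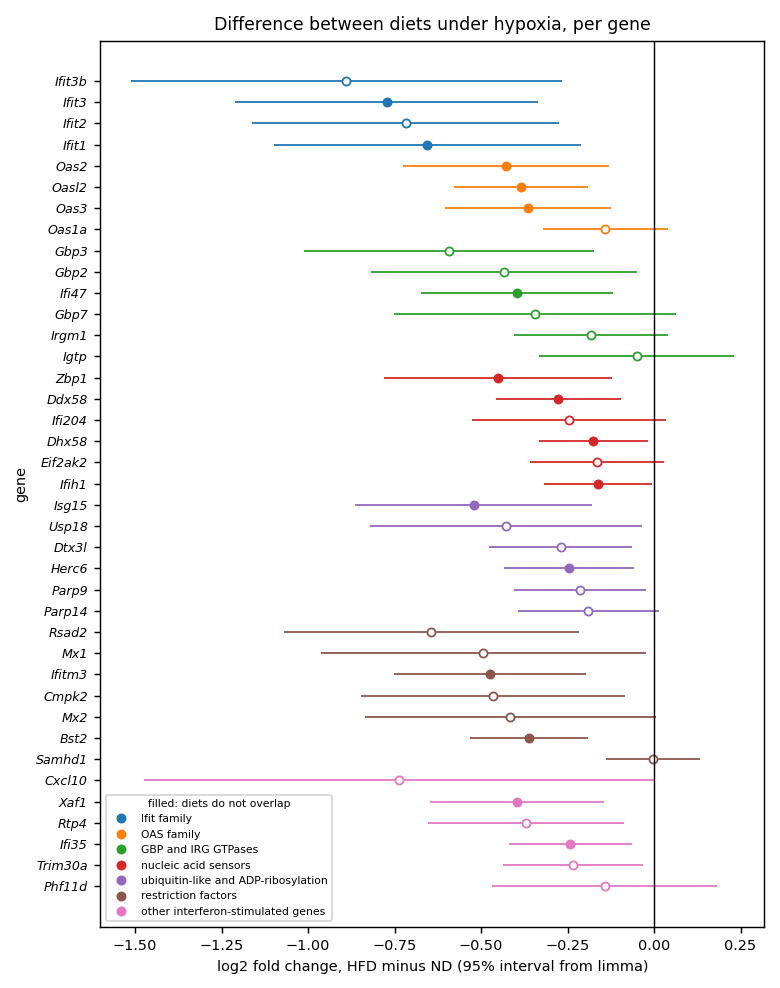
Log2 fold change (HFD minus ND, x axis) of each of the 39 genes (y axis), with limma's 95% interval as a line, from 3 libraries per diet. Colours are subfamilies and filled points are the 16 genes whose diets did not overlap. All points lie below 0, from -0.89 to -0.0030, with the 4 Ifit genes between -0.89 and -0.65.

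The libraries of a diet were not alike in these genes. ND replicate 1 was the highest of the 6 libraries for 34 of the 39 genes, and HFD replicate 2 was the lowest for 26 and HFD replicate 3 for 10. The median over the 39 genes of each library's log2 deviation from the gene's mean was 0.29, 0.16 and 0.029 in ND, and 0.023, -0.28 and -0.20 in HFD. The lowest ND library and the highest HFD library were therefore at nearly the same level. HFD replicate 1 was above ND replicate 3 for 20 of the 39 genes and below it for 19. HFD replicate 1 was below ND replicates 1 and 2 for 36 genes.

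These counts moved with single libraries. The count below -0.5 was 5 without ND replicate 1 (1.55% of all genes) or HFD replicate 2 (1.51%) and 16 without ND replicate 3 (3.01%) or HFD replicate 1 (2.71%). Without ND replicate 3 the diets did not overlap for 36 genes (18.2% of all genes), and without HFD replicate 1 they did not for 33 (14.9% of all genes). Leaving out a library can only keep or raise the number of genes lower without overlap, here and below, so these rises do not test the result. ND replicate 3 was the lowest ND library for 29 of the 39 genes, and HFD replicate 1 was the highest HFD library for 31. The count lower at an unadjusted p under 0.05 was 34 without ND replicate 3 (8.44% of all genes) and 33 without HFD replicate 1 (6.18%). It was 16 without ND replicate 1 (2.63%) and 17 without HFD replicate 2 (2.75%). Without ND replicate 3, 1 of the 39 genes passed the adjusted threshold, *Ifit2* (-0.91, limma adjusted p 0.0458), against 0.537% of all genes called lower. Over all alternatives the limma adjusted p of *Ifit2* ran from 0.00919 to 0.882. With array weights, by which limma gives each library a weight from its fit to the model, 33 of the 39 genes were called lower, against 4.02% of all genes. With the replicate number as a term, 1 of the 39 was, against 0.0378% of all genes. The median within-diet SD on the log2 scale was 0.19 for the 39 genes and 0.12 for all genes.

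**Figure D2:**
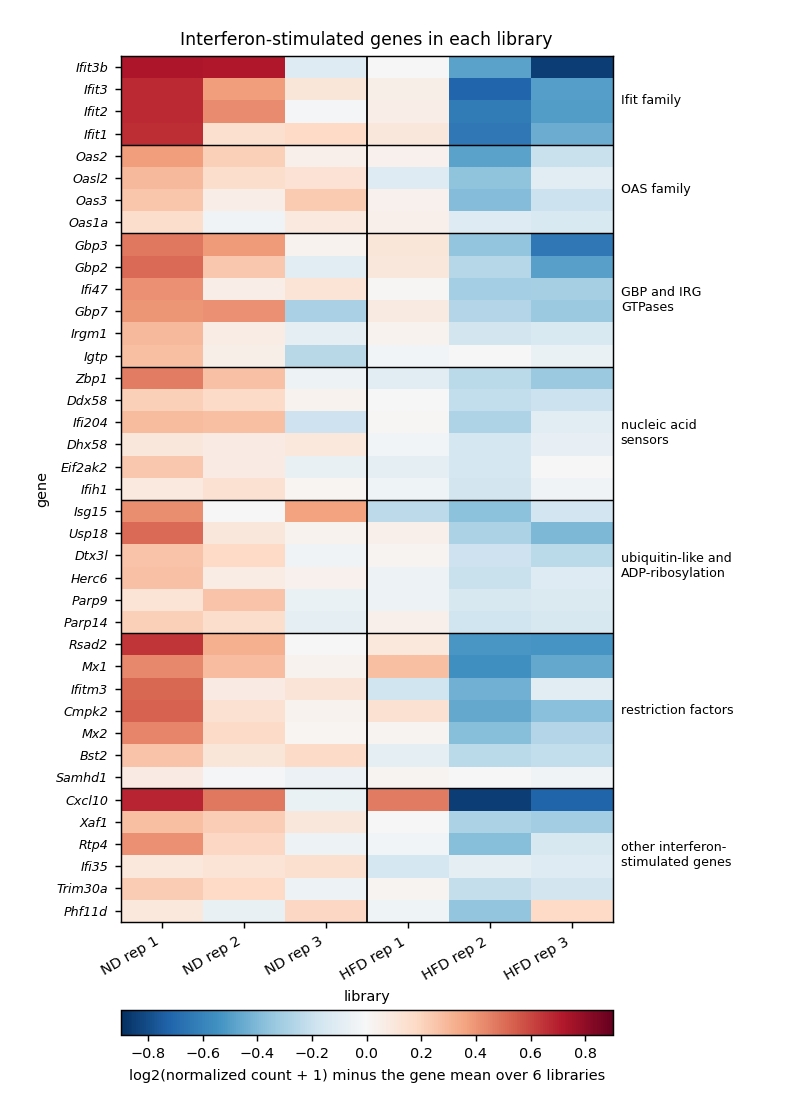
Log2(normalized count + 1) of each gene in each library, less the gene's mean over the 6 libraries (colour, red above and blue below the mean). Rows are the 39 genes by subfamily and columns the libraries. ND replicate 1 is red and HFD replicate 2 blue in nearly all rows, and ND replicate 3 and HFD replicate 1 are pale.

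The Ifit genes encode proteins that bind foreign or incompletely capped RNA and hold back its translation. The 4 genes lie together on chromosome 19 (mm10, chr19:34550550-34650009), and they had the lowest median of the subfamilies, a log2 fold change of -0.75. All 4 had an unadjusted p under 0.05 (5.18% of all genes) and 2 did not overlap between the diets (7.07%), or 4 without ND replicate 3 (18.2%) or without HFD replicate 1 (14.9%). *Ifit3* had the smallest p among them. It was at 561, 456 and 379.8 normalized counts in ND and at 364, 214 and 249 in HFD. All HFD values were lower, and the highest of them was close to the lowest ND value. The mean was 466 ± 90.9 under ND and 276 ± 78.3 under HFD (SD, n = 3 each), with a log2 fold change of -0.77 (SE 0.20, limma adjusted p 0.270).

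*Ifit1* was at 437, 304 and 312 in ND and at 295, 176 and 202 in HFD, again without overlap (-0.65, SE 0.20, limma adjusted p 0.310). *Ifit2* was at 1105, 929.9 and 686 in ND and at 721, 448 and 489 in HFD. Here HFD replicate 1 lay above ND replicate 3, and the fold change was -0.72 (SE 0.20, limma adjusted p 0.284). *Ifit3b*, a near copy of *Ifit3*, was at 127, 126 and 70.1 in ND and at 75.7, 54.1 and 41.8 in HFD. Its fold change, -0.89 (SE 0.28, limma adjusted p 0.319), was the lowest of the 39.

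*Ifit3* and *Ifit3b* cannot be cleanly separated by reads of this length. Of the 75-base windows of the *Ifit3* transcripts, 41.1% also occur in *Ifit3b*, so the split between them depends on how the authors' counting placed shared reads. Their sum, which does not depend on that split, was 687, 582 and 449.9 in ND and 439.5, 268 and 291 in HFD. The sum did not overlap between the diets and had a log2 difference of -0.80.

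The OAS genes encode enzymes that make short oligoadenylates on sensing double-stranded RNA and so activate an RNA-degrading enzyme, RNase L. *Oas1a*, *Oas2* and *Oas3* lie within 177 kb on chromosome 5 (chr5:120730333-120907544), and *Oasl2* encodes a related protein with ubiquitin-like domains. Of the 4 genes with a row, 3 did not overlap between the diets (7.07% of all genes; 3 without ND replicate 3, 4 without HFD replicate 1), and the median fold change was -0.38. *Oasl2* was at 1499.7, 1368 and 1343 in ND and at 1129.6, 952 and 1149.6 in HFD. Each HFD value was below each ND value (1403 ± 84.3 against 1077 ± 109, SD, n = 3), with a fold change of -0.38 (SE 0.086, limma adjusted p 0.217). *Oas2* (-0.43, limma adjusted p 0.318) and *Oas3* (-0.37, limma adjusted p 0.301) did not overlap either, although HFD replicate 1 of *Oas2* (574) was just under ND replicate 3 (577).

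*Oas1a*, the most abundant OAS gene per kilobase of exon, was at 892, 783 and 852 in ND and at 826, 737 and 729 in HFD. HFD replicate 1 was above ND replicate 2, and the fold change was -0.14 with a 95% interval from -0.32 to 0.039. Of its 75-base windows 47.6% also occur in *Oas1g*, and the sum of these genes had a difference of -0.11 with overlap, so its level is uncertain.

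The GBP and IRG genes encode GTPases, induced above all by interferon gamma, that gather on the vacuoles of intracellular microbes. *Gbp2*, *Gbp3* and *Gbp7* lie within 108 kb on chromosome 3 (chr3:142530336-142638008). The 6 genes had a median fold change of -0.37, 3 had an unadjusted p under 0.05, and only *Ifi47*, an IRG protein, did not overlap (5.18% and 7.07% of all genes). Without ND replicate 3 these counts were 5 and 6 (8.44% and 18.2%), and without HFD replicate 1 they were 4 and 4 (6.18% and 14.9%). The count at that p was 2 when ND replicate 1 (2.63%), ND replicate 2 (3.75%), HFD replicate 2 (2.75%) or HFD replicate 3 (4.70%) was left out. *Ifi47* was at 468, 366 and 382 in ND and at 354, 285 and 285 in HFD (-0.40, SE 0.12, limma adjusted p 0.319). *Gbp2*, the most abundant of them per kilobase, was at 1037, 859 and 677 in ND and at 779, 607 and 517 in HFD (-0.43, SE 0.17, limma adjusted p 0.416), and its fold change was -0.29 without ND replicate 1. *Gbp3* was at 345, 324 and 253 in ND and at 268, 194 and 158 in HFD (-0.59, SE 0.19, limma adjusted p 0.320). For *Gbp2* and *Gbp3* the only HFD value within the ND range was that of replicate 1.

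In *Gbp7*, ND replicate 3 stood apart from its diet. *Gbp7* was at 880.2 and 891 in ND replicates 1 and 2, at 547 in ND replicate 3, and at 708, 558 and 530.1 in HFD. Its fold change was -0.34 with all libraries, -0.58 without ND replicate 3 and -0.22 when ND replicate 2 was left out. *Irgm1*, a regulator of the other IRG proteins, had a fold change of -0.18 (95% interval -0.40 to 0.040), which was -0.083 without ND replicate 1. *Igtp* was at 412, 354 and 286 in ND and at 335, 342 and 327 in HFD, so that the HFD values lay inside the ND range. Its fold change of -0.050 became 0.074 without ND replicate 1, and -0.19 when ND replicate 3 was left out.

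The sensor genes encode proteins that detect viral nucleic acid. *Ddx58* (RIG-I) and *Ifih1* recognize RNA and signal for interferon production, *Dhx58* modulates them, *Eif2ak2* (PKR) shuts down translation on double-stranded RNA, *Zbp1* binds Z-form nucleic acid, and *Ifi204* belongs to the DNA-sensing p200 family. Their median fold change was the smallest in size of the subfamilies, -0.21. Of the 6, 4 did not overlap between the diets (7.07% of all genes), 6 did not without ND replicate 3 (18.2%) and 4 without HFD replicate 1 (14.9%). At an unadjusted limma p under 0.05, 4 were lower (5.18%). With 1 library left out that count ran from 1 (ND replicate 1, 2.63%) to 5 (ND replicate 3, 8.44%). *Ddx58* was at 1499.7, 1459.9 and 1320.3 in ND and at 1291, 1109.8 and 1132 in HFD. All HFD values were lower (-0.28, SE 0.081, limma adjusted p 0.297). *Zbp1* was at 209.5, 183 and 148 in ND and at 142, 128 and 121 in HFD (-0.45, SE 0.15, limma adjusted p 0.337).

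*Dhx58* had narrow groups, 663 ± 6.44 in ND and 588 ± 27.4 in HFD (SD, n = 3), that did not overlap (-0.18, SE 0.071, limma adjusted p 0.423). *Ifih1* did not overlap either (-0.16, SE 0.070, limma adjusted p 0.454). *Ifi204*, the most abundant sensor per kilobase, was at 2450.2, 2417 and 1766 in ND and at 2025, 1656 and 1867 in HFD. ND replicate 3 was lower than HFD replicates 1 and 3 (-0.25, 95% interval -0.53 to 0.035), and without it the fold change was -0.40. *Eif2ak2* had a fold change of -0.16 (95% interval -0.36 to 0.029), with overlap, and of -0.085 without ND replicate 1.

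The ubiquitin-like group holds *Isg15*, a small protein attached to other proteins, its ligase *Herc6* and its remover *Usp18*, which also damps interferon signalling at the receptor. It also holds *Parp9* and *Parp14* of the ADP-ribosylation machinery and *Dtx3l*, the ubiquitin ligase partner of PARP9. The 6 genes had a median fold change of -0.26, and 5 were lower at an unadjusted limma p under 0.05 (5.18% of all genes). That count was 6 without ND replicate 3 (8.44%) or HFD replicate 1 (6.18%), but 1 without ND replicate 1 (2.63%) or HFD replicate 2 (2.75%). The diets did not overlap for 2 of them (7.07% of all genes), or for 6 without ND replicate 3 (18.2%) or HFD replicate 1 (14.9%). *Isg15* was at 143, 107 and 137 in ND and at 90.1, 82.0 and 94.4 in HFD. No HFD value reached the lowest ND value, and the means were 129 ± 19.4 and 88.8 ± 6.30 (SD, n = 3; -0.52, SE 0.15, limma adjusted p 0.301). *Isg15* was 1 of 9 genes whose lowest ND library was replicate 2, and its ND replicate 3 was near replicate 1.

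*Usp18* was at 161, 121 and 115 in ND and at 116, 92.6 and 85.2 in HFD, with HFD replicate 1 just above ND replicate 3 (-0.43, SE 0.18, limma adjusted p 0.431). Its fold change was -0.28 without ND replicate 1. *Herc6* did not overlap (-0.25, SE 0.084, limma adjusted p 0.357). *Parp14*, *Dtx3l* and *Parp9* are neighbours within 141 kb on chromosome 16 (chr16:35831892-35972621), and *Dtx3l* and *Parp9* share 558 bases of their spans. Their fold changes were -0.19, -0.27 and -0.21, each with overlap, and that of *Parp9* was -0.14 without ND replicate 2. *Parp14*, the most abundant per kilobase, was at 6861, 6610.5 and 5583 in ND and at 6105, 5224 and 5351 in HFD. ND replicate 3 lay within the HFD range there, and the 95% interval ran from -0.39 to 0.015.

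The restriction factors act on virus particles or their replication. *Bst2* (tetherin) holds budding particles at the cell surface, *Ifitm3* hinders fusion in endosomes, and *Rsad2* (viperin) makes a chain-terminating nucleotide with help from its neighbour *Cmpk2*. *Mx1* and *Mx2* encode dynamin-like GTPases, and *Samhd1* breaks down nucleotides needed for reverse transcription. The 7 genes with a row had a median fold change of -0.47, and 2 did not overlap between the diets (7.07% of all genes), or 6 without ND replicate 3 (18.2%) or HFD replicate 1 (14.9%). At an unadjusted limma p under 0.05, 5 were lower (5.18%), or 6 without ND replicate 3 (8.44%) or HFD replicate 1 (6.18%). That count was 3 without ND replicate 1 (2.63%), HFD replicate 2 (2.75%) or HFD replicate 3 (4.70%).

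*Bst2* had the smallest p of all 39 genes and stood 58th among the 13232. It was at 928, 836 and 874 in ND and at 734, 655 and 663 in HFD, so that a clear gap separated the diets. The mean was 879 ± 46.2 under ND and 684 ± 43.5 under HFD (SD, n = 3), and the log2 fold change was -0.36 (SE 0.076, limma adjusted p 0.195). Over the alternatives its limma adjusted p ran from 0.00854 with array weights to 0.860 without HFD replicate 2. None of its 75-base windows occurs in another gene. *Ifitm3*, the most abundant of the 39 per kilobase, was at 3807, 2803 and 2887 in ND and at 2346, 1968 and 2486 in HFD, again without overlap (-0.47, SE 0.12, limma adjusted p 0.278).

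*Rsad2* was at 959, 769 and 615 in ND and at 655, 428 and 424 in HFD (-0.64, SE 0.19, limma adjusted p 0.301). *Cmpk2* lies 12664 bases away on chromosome 12, and was at 653, 497 and 461 in ND and at 495, 328 and 348 in HFD (-0.47, SE 0.17, limma adjusted p 0.384). In these neighbours, HFD replicate 1 was above ND replicate 3 and HFD replicates 2 and 3 were below every ND library. The same held for *Mx1* (-0.49, SE 0.21, limma adjusted p 0.447) and *Mx2* (-0.42, SE 0.19, limma adjusted p 0.479), although HFD replicate 1 of *Mx2* (68.3) was above ND replicate 3 (68.0) by less than 1 normalized count. Without HFD replicate 1 the fold change of *Mx1* was -0.75. *Mx2* was the least abundant of the 39 per kilobase.

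*Samhd1* differed from the rest. It was at 9879, 9284 and 9061 in ND and at 9546, 9423.5 and 9181 in HFD, with the HFD values inside the ND range. Its fold change was -0.0030, with a 95% interval from -0.14 to 0.13, and it took the other sign without ND replicate 1 (0.033) or HFD replicate 3 (0.013). No ISRE match was found in its promoter, which says only that these letters are not in that window. The same was true of *Ifit2* (-0.72), while *Igtp* (-0.050), whose HFD values also lay inside the ND range, had a match.

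**Figure D3:**
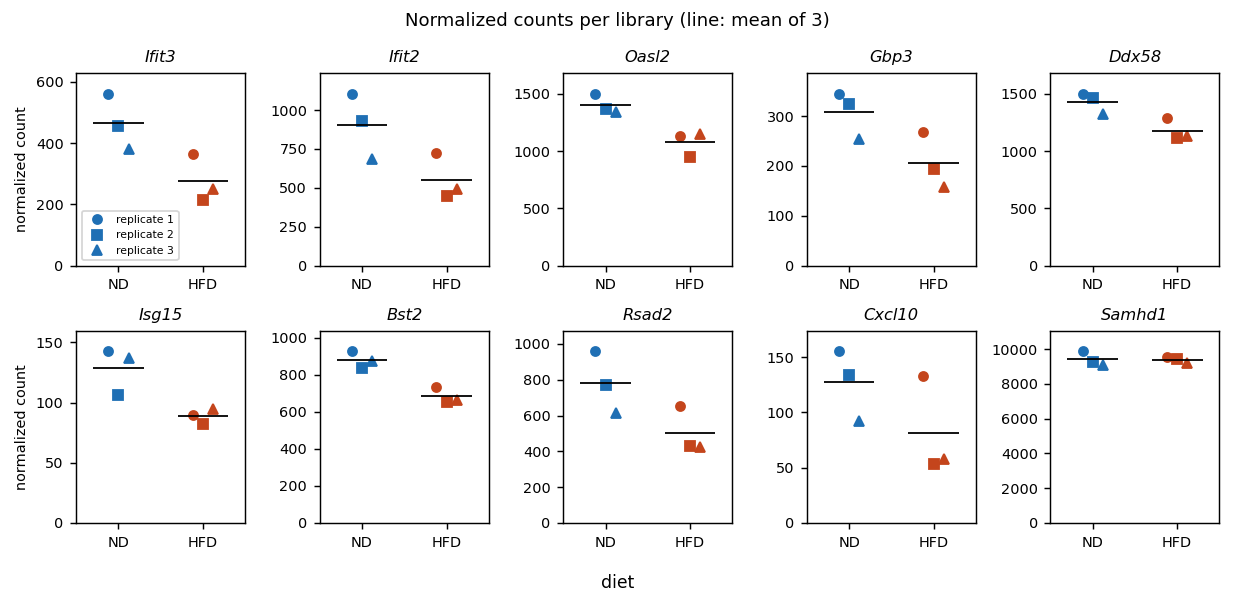
Normalized counts (y axis, from 0) of 10 of the genes in each library by diet (x axis), with marker shapes for the replicate number and a line for the mean of 3. *Bst2*, *Isg15* and *Oasl2* show a gap between the diets, HFD replicate 1 of *Cxcl10* (133) lies among the ND values, and *Samhd1* is level.

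The remaining genes are *Cxcl10*, a chemokine that draws T cells, and *Xaf1*, *Rtp4*, *Ifi35*, *Trim30a* and *Phf11d*, which are interferon-induced with varied roles. Their median fold change was -0.31, and 2 of the 6 did not overlap between the diets (7.07% of all genes), or 5 without ND replicate 3 (18.2%) or HFD replicate 1 (14.9%). *Cxcl10* had the widest spread, at 155, 134 and 92.5 in ND and at 133, 53.1 and 57.9 in HFD. Its fold change was -0.74 (SE 0.33, limma adjusted p 0.475) and moved to -0.50 when HFD replicate 2 was left out and to -1.15 when HFD replicate 1 was. The range of the HFD libraries exceeded the difference between the means of the diets.

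*Xaf1*, which promotes cell death, was at 312, 302 and 279 in ND and at 260.2, 212 and 209 in HFD without overlap (-0.40, SE 0.11, limma adjusted p 0.286). *Ifi35* was at 375, 383 and 389.6 in ND and at 315, 331 and 325 in HFD, also without overlap (-0.24, SE 0.079, limma adjusted p 0.337). It departed from the usual order, with HFD replicate 1 the lowest library and ND replicate 3 the highest. *Trim30a*, the most abundant of this group per kilobase and known to restrain Toll-like receptor signalling, was at 2439, 2359.5 and 2017 in ND and at 2126, 1801 and 1856 in HFD (-0.24, SE 0.090, limma adjusted p 0.403). *Rtp4* had a fold change of -0.37 (SE 0.13, limma adjusted p 0.357). *Phf11d* was at 221, 197 and 235 in ND and at 200.3, 161 and 234 in HFD, and its fold change of -0.14 was -0.0014 without HFD replicate 2, -0.086 without ND replicate 3 and -0.27 without HFD replicate 3.

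Levels per kilobase of exon spanned a wide range among the 39 genes. In ND the mean normalized count per kilobase was 4669 for *Ifitm3*, 1028 for *Samhd1* and 974 for *Bst2*, and 47.5 for *Usp18* and 21.7 for *Mx2*. In HFD these levels were 3343, 1026, 758, 35.1 and 16.2, so the order of these 5 genes was the same in both diets. The estimated reads behind a single value ran from 46.0 (*Ifit3b* in HFD replicate 3) to 10110 (*Samhd1* in HFD replicate 3), and the counting error was 14.7% at the former.

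The other listed genes of the interferon pathway, 32 with a row of 39, had a median fold change of -0.032, with 23 lower and 9 higher. With 1 library left out at a time the median ran from -0.066 (HFD replicate 1) to -0.011 (ND replicate 1), and the number lower from 19 (ND replicate 2 or HFD replicate 3) to 26 (ND replicate 3). None of the 6 interferon ligand genes listed, *Ifnb1* among them, had a row in the table. Of the 7 receptor and kinase genes, 0 were called by limma and 0 had an unadjusted limma p under 0.05, also when ND replicate 3 or HFD replicate 1 was left out. Of all genes 10.6% had such a p with all libraries, and among 7 genes a count of 0 is near that share. The median fold change of the 7 was -0.012, or 0.0030 without ND replicate 2 and -0.037 without ND replicate 3. *Ifnar1*, a subunit of the type I receptor, was at 5182, 5107 and 5081 in ND and at 5167, 4907 and 5164 in HFD (-0.013, 95% interval -0.14 to 0.11). *Ifnar2*, its partner, had a fold change of -0.089 (95% interval -0.24 to 0.066), and *Tyk2*, with the smallest p of this group, -0.092 (95% interval -0.25 to 0.062). With 1 library left out, *Ifnar2* ran from -0.13 (ND replicate 3) to -0.042 (ND replicate 2) and *Tyk2* from -0.14 (HFD replicate 1) to -0.047 (ND replicate 1).

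Among the STAT and IRF genes, the transcription factors of the pathway, *Irf7* had the smallest p. *Irf7*, which amplifies interferon production, was at 709, 610.2 and 547 in ND and at 483, 400.5 and 405 in HFD without overlap (-0.53, SE 0.11, limma adjusted p 0.196). *Stat2* (-0.26, limma adjusted p 0.435) and *Irf9* (-0.14, limma adjusted p 0.542) overlapped, and *Irf1* had a fold change of -0.051. Of the 10 STAT and IRF genes 0 were called. At an unadjusted limma p under 0.05, 3 were lower (5.18% of all genes) and 1, *Irf5*, was higher (5.40%), and 2 lay lower (7.07%) and 1 higher (7.44%) without overlap. Without ND replicate 3 the counts at that p were 4 lower (8.44%) and 1 higher (9.01%), and without HFD replicate 1 they were 3 lower (6.18%) and 1 higher (6.44%). The count lower was 1 when ND replicate 1 (2.63%) or HFD replicate 2 (2.75%) was left out. Those lower without overlap were 4 without ND replicate 3 (18.2%) and 5 without HFD replicate 1 (14.9%). Among 4 feedback inhibitors and 11 sensing adaptors 0 were called and 0 had an unadjusted limma p under 0.05 (5.18% of all genes lower and 5.40% higher). When ND replicate 3 was left out, 2 adaptors were lower at that p (8.44%). When ND replicate 2 was left out, 1 adaptor was higher at that p, as were or were lower 1060 of 13232 genes. With all libraries the smallest p-values of these groups belonged to *Pias1* (-0.067) and *Tlr7* (-0.19). *Pias1* was at -0.024 without ND replicate 2 and at -0.12 without ND replicate 3, and *Tlr7* at -0.099 without ND replicate 1. Without ND replicate 3, *Irf7* (-0.62, limma adjusted p 0.0319) and *Tlr7* (-0.36, limma adjusted p 0.0201) were called, against 0.537% of all genes called lower. When each of the other libraries was left out, the limma adjusted p of *Irf7* ran from 0.136 to 0.860 and that of *Tlr7* from 0.614 to 0.976.

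Of 21 genes of the same families outside the list, picked by their symbols, 20 were lower in HFD (51.1% of all genes) with a median fold change of -0.32, 10 were lower at an unadjusted limma p under 0.05 (5.18% of all genes) and 3 (*Gbp9*, *Ifi211* and *Ifi213*) did not overlap between the diets (7.07%). Without ND replicate 3 the last 2 counts were 13 and 13 (8.44% and 18.2% of all genes), and without HFD replicate 1 they were 13 and 13 (6.18% and 14.9%). The count at an unadjusted p under 0.05 was 4 when ND replicate 1 (2.63%), ND replicate 2 (3.75%) or HFD replicate 2 (2.75%) was left out. When HFD replicate 3 was left out, 6 were lower at that p (4.70%) and 5 did not overlap (12.4%). By limma's adjusted p, 0 were called with all libraries and 3 without ND replicate 3 (*Gbp5*, *Ifi203* and *Ifi211*), against 0.537% of all genes called lower. The gene that was not lower was *Oas1g* (0.0075). Some of them share reads with listed genes and are not separate evidence, since 11.3% of the windows of *Ifi204* also occur in *Ifi211*. The difference between these genes and the 39 was not tested.

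**Figure D4:**
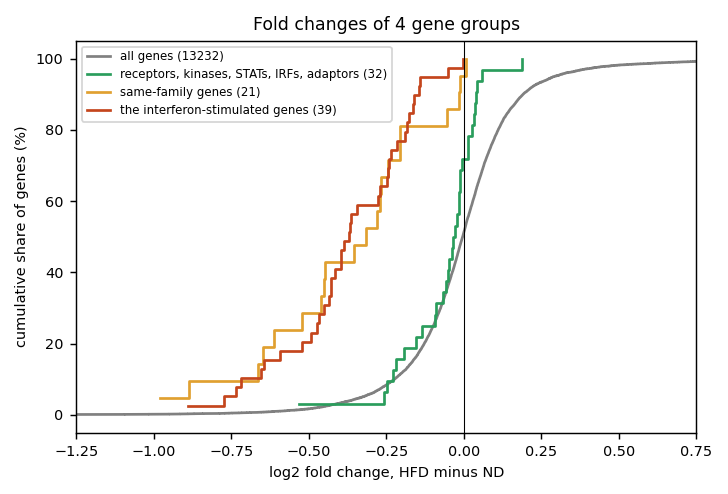
Cumulative share of genes (y axis, percent) by log2 fold change (x axis, HFD minus ND) for all 13232 genes, 32 genes for receptors, kinases, STATs, IRFs, inhibitors and adaptors, 21 same-family genes and the 39 listed genes. The curves of the listed genes (median -0.37) and of the same-family genes (median -0.32) lie to the left of that of all genes (median -0.0034).

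The fold changes did not divide sharply by promoter letters. The 19 listed genes with an ISRE match had a median of -0.37 and the 10 with a promoter but no match -0.33. Among the former 7 were below -0.5 (4 without ND replicate 1 or HFD replicate 2, 9 without ND replicate 3 or HFD replicate 1) and among the latter 1 (1 to 2 with 1 library left out). The diets did not overlap for 8 of the 19 (42.1%) and 5 of the 10 (50%), against 7.07% of all genes lower without overlap. That share was 7.96% of genes outside the list with a match and 6.07% of those without. These overlap counts were not repeated with 1 library left out. Among the other genes of the table, 339 had a match. Of these 55.8% were lower in HFD and 4.13% below -0.5, against 48.9% and 0.809% of 8653 genes without a match. The 339 include 14 of the same-family genes, 5 of them below -0.5, and without these 54.2% of 325 genes were lower and 2.77%, or 9 genes, below -0.5. The same-family list was picked by symbol and is not complete, and these 9 still hold *Mndal* of the p200 family and the interferon-induced GTPase gene *Tgtp2*. These shares are descriptions with no test.

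Marker genes of other cells moved partly with the diets. *Ighm*, the only one of 6 B cell markers with a row, was at 3061, 2891 and 1889 in ND and at 2075, 1876 and 1886 in HFD. *Itgax*, the only one of 7 conventional dendritic cell markers with a row, ran the other way, at 1138.5, 1172 and 2131 in ND and at 2072, 2899 and 3071 in HFD. In both genes ND replicate 3 lay near the HFD libraries. Of 7 markers of plasmacytoid dendritic cells, which are strong interferon producers, *Siglech*, *Ccr9*, *Klk1*, *Spib* and *Bcl11a* had no row, and the summed level of the other 2, *Tcf4* and *Irf8*, was 8428 to 9573 in ND and 7935 to 9393 in HFD. Of 10 neutrophil markers *Camp*, *Elane*, *Mpo* and *Ly6g* had no row, and the other 6 summed to 1712 to 2455 in ND and 2109 to 3429.7 in HFD. *Mmp8*, the only one of them without overlap, was at 443, 463 and 452 in ND and at 707, 1032 and 834 in HFD. The single T cell marker with a row of 6 T and NK cell markers, *Cd4*, was at 202 to 356 in ND and 98.1 to 230.04 in HFD, and 3 of 5 stromal markers summed to 177 to 549 in ND and 51.8 to 337 in HFD. None of 5 erythroid and 4 mast cell markers had a row. The part of these cells in the result was not tested.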

How the data were processed

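RNA was sequenced as single reads of 75 bases from stranded, ribosomal RNA-depleted libraries made from 100 ng of total RNA, per the labels. Per the submitters' processing notes, STAR, Partek and the build mm10 are named, with roles and versions not given in the sources used here. The deposited values are a signal, estimated gene counts that the authors divided by a size factor per library, which was read from the values: 57.1% to 58.4% of values from 5 to 1000 were whole multiples of the value of 1 read (tolerance 0.02), and 3.76% to 3.90% with unrelated steps. A test on counts was therefore not made. The normal diet was taken to be the columns marked NC, and the replicate from the number in the column name.

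Differences between the diets (3 libraries each) in log2(value + 1) were tested by limma 3.58.1 (R 4.3.3, mean-variance trend, two-sided), with Benjamini-Hochberg adjustment over all 13232 genes and no further filter. Fold changes on this scale understate those of low genes. The script was tested on simulated data. The same fit was repeated with other pseudocounts, filters, scalings, weights, a replicate term and each library left out. Promoter sequences and gene positions are RefSeq's for GRCm38.p6, the assembly of mm10. Exon lengths and shared 75-base windows are from GENCODE M21. The genes and lists were chosen with earlier results of these data known, and the same-family list after the table's gene symbols were seen. The genes named with values in each library are, per subfamily, the one with the smallest p and the most abundant per kilobase, with fixed pathway genes, and others chosen after their values were seen. Counting error covers reads only, since no molecular identifiers are described and reads may be copies of 1 molecule. A gene of the pathway list is counted in its group and not reported by name here.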

Additional observations from a re-analysis of the deposited data

How the results depend on the processing

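The median fold change of the 39 genes (-0.37) kept its sign in each of the 14 alternatives of the fit. Leaving out 1 library gave medians from -0.47 to -0.29, 37 to 39 genes lower, 16 to 36 genes without overlap, 16 to 34 genes at an unadjusted p under 0.05, 0 to 1 of the 39 called and 0 to 233 genes called in all. The signs that reversed were those of *Igtp* (0.074) and *Samhd1* (0.033) without ND replicate 1 and *Samhd1* (0.013) without HFD replicate 3. With 1 library left out at a time, *Igtp* ran from -0.19 to 0.074 and *Samhd1* from -0.030 to 0.033. With limma array weights, which weigh each library by its fit to the model (ND replicate 3 at 0.441, HFD replicate 2 at 3.09), 33 of the 39 genes and 1133 genes in all were called, and the median was -0.52. Of all genes 4.02% were then called lower. The cause was not tested. Adding 0.1 in place of 1, asking for 10 or more in each library, a minimum mean of 100 (37 of the 39 genes left), quantile normalization, scaling to the column total and limma without the trend called 0 of the 39 and 0 genes in all.

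With the replicate block, 31 genes in all and 1 of the 39 were called, *Rsad2* (limma adjusted p 0.0472, from 0.0113 to 0.886 over the alternatives). Over all genes, the residual correlation of libraries with the same number was -0.0086, -0.037 and -0.00069, and 0 of the 6 libraries correlated best with their own number. With 3 libraries per diet, this cannot show whether libraries of the same number share more than the number. Among the 39 genes, replicate 1 was the highest library of its diet for 34 in ND and for 31 in HFD. Of 544 values of single genes over the alternatives, 3 reversed, 35 passed the threshold (33 of them with array weights) and the other 506 stayed as they were in direction and call. In the 150 bases before the start alone, 13 listed genes had the ISRE letters against 19 in the whole window, and 1.85% of all genes against 3.99%. The counts of same-family and pathway genes and of genes below -0.5 without 1 library, the GAS letters in the 150 bases, and those of other ISRE genes without the same-family genes, were added after seeing the data. DESeq2 was not run, as the values are not whole counts. Depth limits the lowest genes most, with a counting error of 14.7% at the lowest value of *Ifit3b*.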

Other observations

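Among the 339 genes outside the list with ISRE letters in the promoter, 14 had a log2 fold change below -0.5 and 8 one above 0.5. Of the 14, 5 (*Ifit1bl1*, *Ifi213*, *Gbp5*, *Ifi208* and *Ifi206*) are among the same-family genes already described. The genes below -0.5 included *Mndal* (-0.54, limma adjusted p 0.252), a p200 family gene at 2094, 1955 and 1521 in ND and at 1449.6, 1102 and 1267 in HFD without overlap. They also included the GTPase gene *Tgtp2* (-0.73, limma adjusted p 0.353), at 196, 159 and 144 in ND and at 149, 71.8 and 91.9 in HFD. *Calhm6* (-0.60, limma adjusted p 0.366) was at 125, 139 and 123 in ND and at 109, 93.6 and 59.0 in HFD. These genes were chosen after their values were seen, and 0 of them passed the limma threshold.

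The macrophage marker *Cd14*, a receptor for bacterial lipopolysaccharide, was at 4006, 4019 and 3969 in ND and at 3678, 2981 and 3188 in HFD without overlap (-0.29, SE 0.078, limma adjusted p 0.281), while *Adgre1*, a macrophage surface receptor gene, was higher in HFD without overlap, at 28364, 28246 and 25889.6 in ND and at 32633, 30387 and 29047 in HFD (0.16, SE 0.077, limma adjusted p 0.520). The other 6 macrophage markers overlapped, with fold changes from -0.11 (*Mertk*) to 0.10 (*Cd68*).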
